A study of Mus musculus with 6 samples.

Results

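The comparison described here sets wild-type (WT) muscle satellite cells after 36 h in culture against WT satellite cells labelled as freshly isolated. It rests on 2 of the series' 6 samples, 1 RNA library of activated satellite cells (ASC) and 1 of freshly isolated satellite cells (FISC), chosen by their labels and joined gene by gene on the symbol. The study compared satellite cells with and without the transcription factor Yy1 in both states, and the other 4 samples are the 2 Yy1 iKO RNA libraries and a YY1 chromatin immunoprecipitation with its input. The labels give adult mouse satellite cells from muscle, polyadenylated RNA, paired-end libraries, and a culture medium of F10 with fetal bovine serum and antibiotics. They give this growth text to the fresh libraries as well, so whether fresh cells met the medium is unclear. The WT libraries carry no other genotype label, and strain, sex, age, the number of animals and the allele or Cre driver behind the iKO label are, for the RNA libraries, not given in the sources used here. The titles of the YY1 immunoprecipitation and its input carry the label C57. With 1 library a state, every value below describes these libraries, and no difference has a replicate check or a p-value.

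Satellite cells are the stem cells of skeletal muscle. They lie between the muscle fibre and its basal lamina, are marked by the transcription factor Pax7, and are held in quiescence by signals such as Notch. Injury, and equally the enzymatic isolation and plating used to study them, starts their activation, in which they enlarge, raise Myod1, enter the cell cycle and later differentiate or return to quiescence.

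Expression was deposited as FPKM, fragment counts set against transcript length and the number of mapped fragments, in 1 table for each state. Both WT columns were brought to the same upper quartile, 27.6, by multiplying FISC by 1.14 and ASC by 0.892. All levels below are these scaled FPKM, given first for freshly isolated and then for activated cells, and a ratio is log2 of (ASC + 1) over (FISC + 1), so positive values are higher after culture. The added 1 shrinks the ratios of low genes. A gene listed at 0 in 1 of the WT libraries is given without a ratio or fold. Genes are called higher or lower at 2-fold of FPKM + 1, a convention on size that tests nothing.

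Total depth is unknown, because FPKM removes it. The steps of low values, shared by 20.3% of 1191 genes at no more than 0.3 FPKM, would imply 1.77 ASC reads for each FISC read. This holds only if both tables were normalized alike, which is not known. Yy1 itself stood at 58.0 to 49.2, and at 23.6 to 1.66 in the iKO libraries. The labelled cell type showed its markers in both libraries, with Pax7 at 70.3 to 25.3, Myod1 at 468 to 622, Cdh15 at 183 to 37.0 and Itga7 at 181 to 138. Of 10 satellite cell markers, 8 were 2-fold lower in ASC and none higher, and their summed level went from 3280 to 1091. The libraries also differed in sex-linked genes. Ddx3y (70.7), Eif2s3y (30.9), Uty (3.58) and Kdm5d (2.52), all carried by the Y chromosome, were present in FISC and listed at 0 in ASC, while Xist stood at 70.9 to 86.9. The sex-linked genes thus differ together with the state, and an effect of sex and one of state cannot be told apart.

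RNA of other cell types was also higher in FISC. Of 13 fibroblast and fibro-adipogenic markers kept, 12 were 2-fold lower in ASC and none higher, and their summed level went from 1579 to 55.4, led by Gsn (967 to 16.8) and Dpt (167 to 0.283), with the defining receptor Pdgfra at 1.26 to 0.737. Erythroid genes, the globins with Alas2, went from a sum of 439 to 0, all 5 kept members being listed at 0 in ASC. Pericyte and smooth muscle markers summed to 274 and 38.2 (8 of 9 lower), of which Notch3, also a satellite cell gene, made 149 to 3.15, and Rgs5 went from 10.6 to a listed 0. Tenocyte markers summed to 309 and 20.6 (4 of 6 lower, Scx higher at 3.08 to 16.5) and Schwann cell markers to 137 and 8.76 (3 of 4 lower). The median of the kept Schwann cell markers was 5.23 in FISC and 0.727 in ASC, so their FISC sum rests mostly on a single gene. Endothelial markers were low in both, at sums of 33.4 and 6.79 with 7 of 8 lower, and so were immune markers at 14.9 and 5.27, where Ptprc stood at 0.0791 and a listed 0. In bulk RNA, fewer cells of a type and less RNA per cell cannot be told apart, and the part of these cells in the differences below was not tested.

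Between the 2 WT libraries 2696 of 11816 genes (22.8%) were at least 2-fold higher in activated cells and 2604 (22%) at least 2-fold lower. At 4-fold there were 733 higher and 1043 lower genes, and at 16-fold 56 and 213, so the large differences were more often on the lower side. The ratio had a median of 0.10, quartiles of −0.85 and 0.91 and an SD across genes of 1.54, when the SD between the WT and iKO libraries of the fresh state was 0.39. The share of calls on the higher side depends on the scaling. It was 50.9% here, 64.4% with the deposited FPKM, which moves the median of all genes by 0.31, and 68.1% with both sums made equal, which moves it by 0.41. Of 203 genes over 500 FPKM in the higher library, 6.90% were higher and 47.3% lower. Genes enter this group through the library where they are high, and the scaled FPKM sum was 620873 in FISC and 450410 in ASC. These shares therefore cannot show that abundant genes as such were lower. In FISC 205 genes held 50% of the FPKM sum and in ASC 449.

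**Figure D1:**
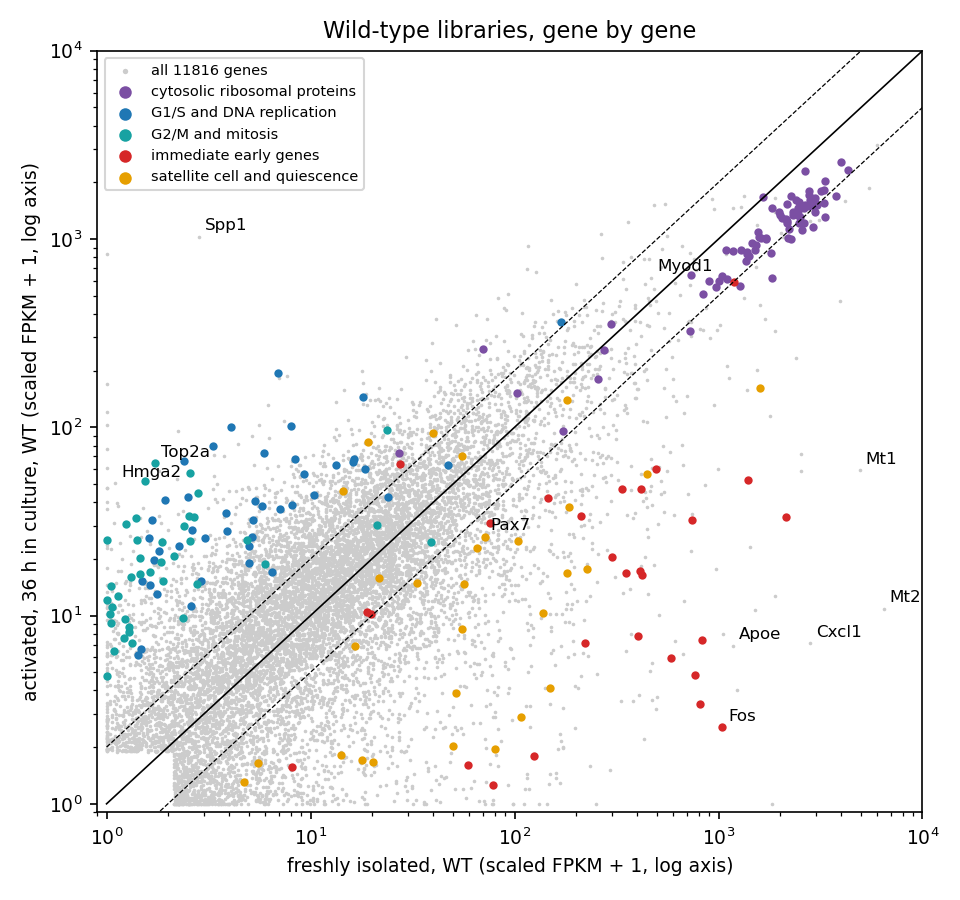
Level of each of the 11816 genes in the 2 WT libraries (scaled FPKM + 1, log axes), with the line of equal level solid and the 2-fold lines dashed. Replication and mitosis genes lie mostly above the upper dashed line, immediate early and quiescence genes mostly below the lower one, and Spp1 and Mt2 at the extremes.

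Spp1, the secreted matrix protein osteopontin (chromosome 5, 104864130 to 104870072, mm9), had the highest ratio of the named genes. It stood at 1.83 in FISC and 1029 in ASC, a ratio of 8.51. Next came Hmga2, a chromatin protein of growing and fetal cells (0.0991 to 49.4), Tnnt2, the cardiac and embryonic form of troponin T (0.144 to 37.4), and the proliferation genes Top2a, Ube2c, Pbk, Rrm2, Uhrf1, Mcm3 and Ccnb1, given below or, for Pbk, a mitotic kinase, at 0.0908 to 29.9. Aurkb was listed at 0 in FISC and stood at 24.1 in ASC. Asns, asparagine synthetase (6.004 to 182), Ltbp2, a matrix protein (0.513 to 36.4), and Tnc, the injury matrix protein tenascin C (6.68 to 186), completed the 15 highest together with Amd2. The last is uncertain, since Amd1 and Amd2 are near-identical copies whose sum went from 36.0 to 57.6.

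Of the named genes the lowest ratio belonged to Mt2, a metallothionein that binds zinc (chromosome 8, 96696518 to 96697467, mm9). It stood at 6446 in FISC and 9.87 in ASC, a ratio of −9.21, and its neighbour Mt1 went from 4912 to 58.1. Behind it came the transcription factors Fos (1039 to 1.57), Fosb (807 to 2.38) and Atf3 (768 to 3.83), the neutrophil chemokines Cxcl1 (2816 to 6.12) and Cxcl2 (293 to 0.521), and the inducible chaperones Hspa1a (1233 to 3.01) and Hspa1b (1894 to 11.7). These chaperone copies can exchange reads, and their sum went from 3127 to 14.7. Apoe, a lipid carrier (1175 to 5.93), Serping1, the complement C1 inhibitor (493 to 2.19), Tnfaip6, a hyaluronan-binding protein (233 to 0.579), Fam132b, the hormone erythroferrone (1512 to 9.76), Medag (498 to 2.70) and Meg3, an imprinted non-coding RNA (472 to 2.58), were of the same order. Hba-a2, a globin, went from 131 to a listed 0.

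The 10 largest gains in level included Spp1, given above. Lgals1, galectin 1, went from 483 to 1523, the nucleolar Npm1 from 544 to 1525, the glycolytic Pkm from 358 to 1232 and Eno1 from 116 to 920.1, and with its copy Eno1b the sum of Eno1 went from 117 to 921. Pfn1 (264 to 1067) and Actb (930.4 to 1622), a regulator and the subunit of actin filaments, S100a4 (114 to 693), the muscle ankyrin repeat protein Ankrd1 (127 to 664) and the cytokine Mif (266 to 792) followed. The losses, besides the metallothioneins and Cxcl1, included Tpt1, a translation-associated protein (5496 to 1863), the endoplasmic reticulum chaperone Hspa5 (3939.7 to 469), the elongation factor Eef1a1 (6004 to 3172), which stayed within 2-fold, the secreted peroxidase Gpx3 (2529 to 57.7), the small heat shock protein Hspb1 (2535 to 71.2) and the autophagy receptor Sqstm1 (2397 to 233). Rps27rt (4146 to 1586) shares sequence with Rps27 and is uncertain.

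Gene lists for 48 processes give the pattern beyond single genes. The median of the list was at least 1 in 9 of them and at most −1 in 15, against a median of 0.10 over all genes. These counts depend on the scaling. With both sums made equal, the median over all genes was 0.50. Complex I (1.36) and tRNA synthetases (1.42) then passed 1, while Notch (−0.89) and BMP and TGF-beta genes (−0.59) no longer reached −1.

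**Figure D2:**
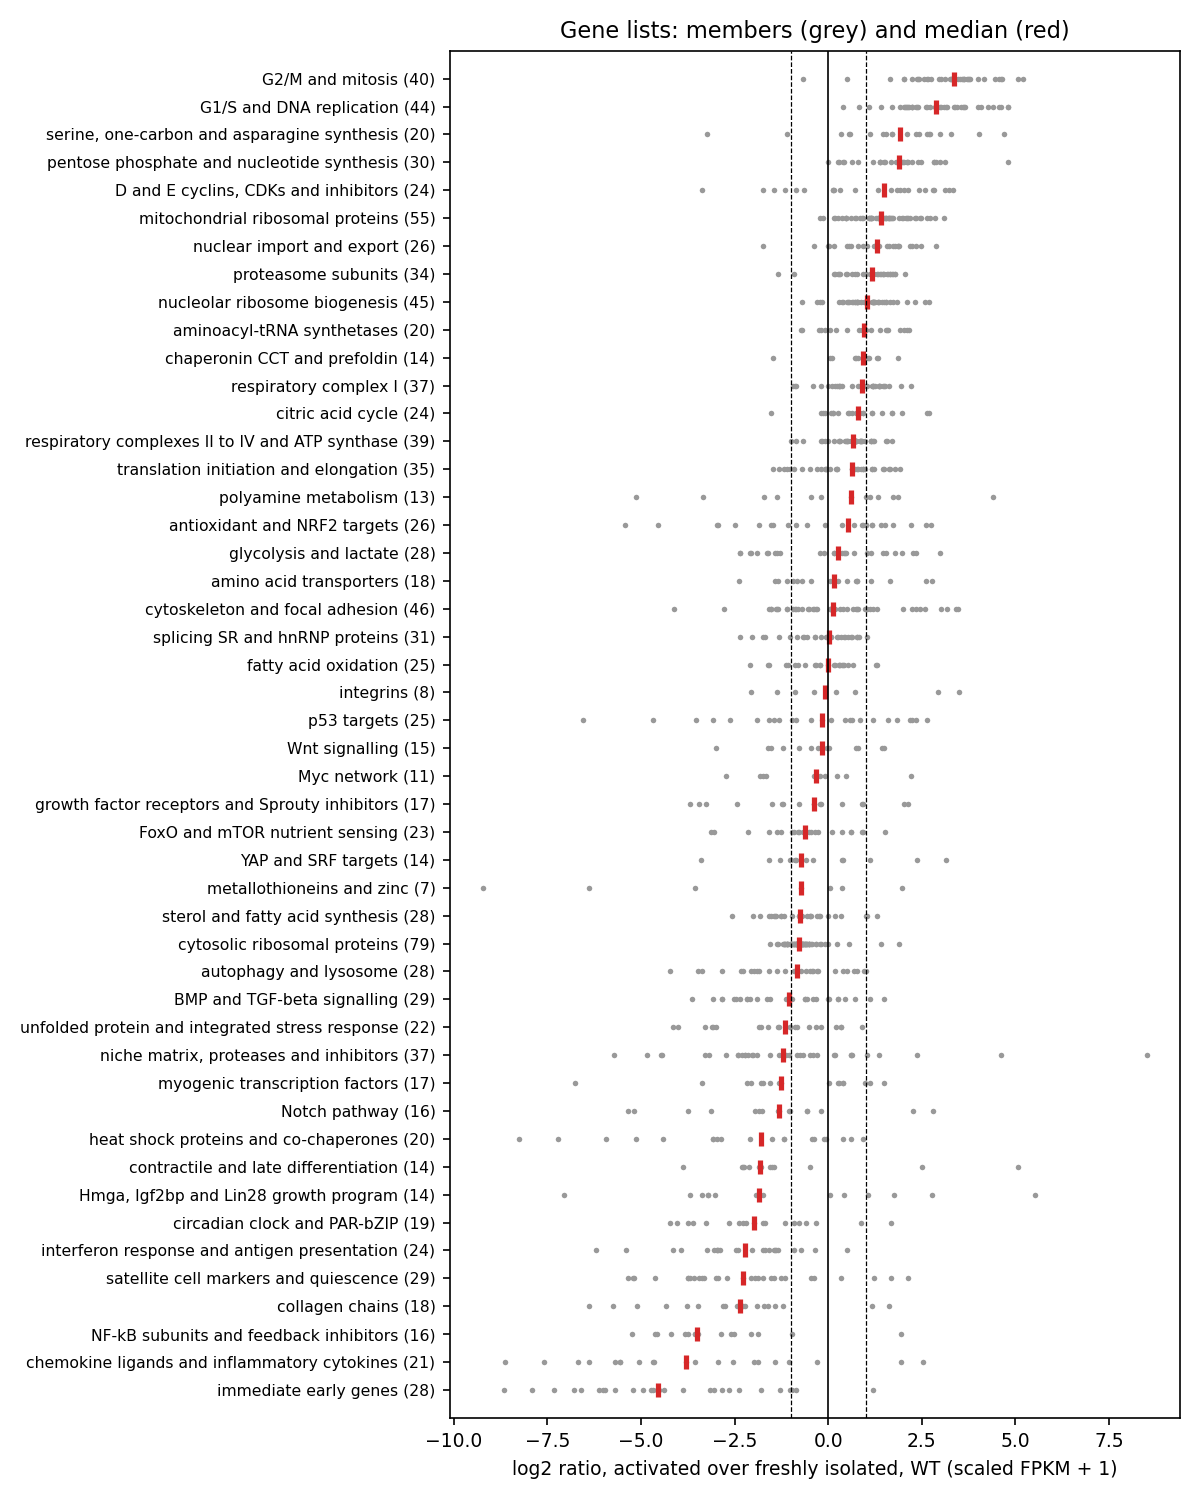
Ratio of each kept member (grey) and the median (red) of 48 gene lists, with the number of members in brackets and dashed lines at 2-fold. G2/M genes (median 3.38) and G1/S genes (2.87) stand at the top, chemokines (−3.79) and immediate early genes (−4.55) at the bottom.

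Genes that mark quiescent satellite cells were mostly lower after culture. Of 29 such genes, 23 were 2-fold lower, 3 higher and 3 within 2-fold, with a median of −2.28. The lowest were the Notch target Heyl (79.0 to 0.958), the secreted BMP antagonist Chrdl2 (106 to 1.89), Notch3 (149 to 3.15) and the calcitonin receptor Calcr (48.7 to 1.02), which keeps satellite cells quiescent. Pax7 was lower at a ratio of −1.44, and Pax3 went from 4.53 to 0.653. Among surface and adhesion proteins, Vcam1 went from 447 to 55.5, Sdc4 from 1595 to 161, the chemokine receptor Cxcr4 from 64.8 to 21.8 and M-cadherin, Cdh15, from 183 to 37.0. Not every surface marker followed: Cd34 (38.7 to 92.2) and Sdc3 (13.4 to 44.8) were higher, and Ncam1 (54.3 to 69.1) and Itga7 stayed within 2-fold. The cell cycle inhibitors Cdkn1c (16.8 to 0.716) and Cdkn1b (32.3 to 13.8) and the growth arrest gene Gas1 (54.0 to 7.46) were lower, as were Foxo1 (15.6 to 5.93), Ndrg2 (136 to 9.31), Tenm4 (19.1 to 0.674), Angpt1 (3.73 to 0.298) and its receptor Tek (13.0 to 0.819), the last also an endothelial marker. Foxo3 (20.6 to 14.8) was within 2-fold.

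Receptors and inhibitors of growth factor signalling split. Met, the receptor for hepatocyte growth factor, which wakes satellite cells, was higher (18.2 to 83.0), and so was the signalling target Etv4 (1.72 to 10.03). The FGF receptors Fgfr1 (433 to 44.1) and Fgfr4 (227 to 16.8) and the inhibitors Spry1 (180.4 to 15.7) and Spred1 (118 to 21.2) were lower. Of 17 genes 7 were lower and 2 higher, with a median of −0.39. Notch pathway genes had a median of −1.32, with 11 of 16 lower. The targets Heyl, Hey1 (50.8 to 2.87) and Hes1 (55.8 to 13.7) and the modulator Dtx4 (60.8 to 6.04) were lower, while the ligand Jag2 (2.76 to 25.1) and Hes6, which opposes Hes1 (9.59 to 50.4), were higher. The receptor Notch2 (25.1 to 16.7) and the DNA-binding effector Rbpj (105 to 71.2), the latter picked with its value known, were within 2-fold.

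The myogenic factors did not move as a block. Myod1, which commits satellite cells to the muscle lineage, was high in both libraries at 468 to 622, within 2-fold. Myf5 was lower (143 to 40.8), and Myog, the factor of differentiating cells, went from 9.43 to a listed 0. The lowest member was Msc, the repressor musculin (381 to 2.53). Of the Id proteins, which block myogenic factors, Id3 was lower (1686 to 374) and Id1 (80.7 to 229) and Id2 (86.0 to 187) higher. Six4 (6.43 to 7.85), Tcf12 (28.3 to 37.8) and Mef2a (16.1 to 16.4) were within 2-fold, and Mef2d (66.7 to 22.0), Eya1 (11.8 to 2.86) and Megf10 (37.9 to 8.34) were lower. Most differentiation genes were low in both libraries: of 27 listed, 14 were kept and 11 of these were lower, such as Tnnt1 (26.7 to 0.899), Tnnc2 (5.06 to 0.230) and Tnnt3 (6.75 to 0.606). Apart from Tnnt2, the exception was Chrna1, a subunit of the acetylcholine receptor (21.7 to 128). Markers of myofibres moved with them, 7 of 9 kept being lower, at levels of a few FPKM as for Ckm (3.56 to 0.0476) and Acta1 (13.0 to 4.16), with Pvalb and Mb listed at 0 in ASC, and Eno3 higher, so that their sum went from 58.9 to 76.2.

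Immediate early genes, which cells transcribe within minutes of a stimulus without new protein, made the lowest list. Of 28 genes 25 were 2-fold lower and 1 higher, the median was −4.55, and their summed level went from 13595 to 1143. Of the AP-1 factors, Junb went from 1394 to 51.7, Jun from 495 to 59.3, Jund from 349.5 to 15.8, Fosl2 from 300.5 to 19.5 and Fosl1 from 144 to 41.2. The zinc finger factors Egr1 (2142 to 32.4), Egr2 (124 to 0.802) and Egr3 (58.2 to 0.605) and the nuclear receptors Nr4a1 (581 to 4.94) and Nr4a3 (77.7 to 0.263) were lower, and Nr4a2 (18.8 to 9.18) and Klf2 (17.9 to 9.41) within 2-fold. Feedback genes followed, with the RNA decay factor Zfp36 at 829 to 6.45, the phosphatase Dusp1 at 403 to 6.80 and the antiproliferative Btg2 at 420.2 to 15.4. Klf10 was the one higher member (26.6 to 62.6), and Cyr61, a matricellular target of YAP, was just past 2-fold lower (1187 to 589). The spread of this list, from −8.66 to 1.21, was wide.

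Inflammatory genes were high in the fresh library. Of the NF-kB subunits, Nfkb1 went from 519 to 43.3, Rela from 447 to 36.9 and Relb from 196 to 12.9. Of the feedback inhibitors that NF-kB induces, Nfkbia went from 371 to 61.0 and Tnfaip3 from 119 to 7.88. Among other genes of this list, Nfkbiz went from 154 to 5.55, Bcl3 from 169 to 5.93 and Birc3 from 227 to 5.07. Nfkb1, Rela, Relb, Nfkbia and Tnfaip3 are shown for their roles and were picked with their values known. The list had a median of −3.51, with 14 of 16 lower and Traf1 higher (0.432 to 4.52). Of 21 chemokines and cytokines 18 were lower, with a median of −3.79. Besides Cxcl1 and Cxcl2, the interferon-induced Cxcl10 (149 to 0.447) and the monocyte attractant Ccl2 (612 to 6.30) were among the lowest. The macrophage growth factor Csf1 (82.4 to 487) and the homing chemokine Cxcl12 (47.2 to 184) went the other way. Interferon response and antigen presentation genes had a median of −2.22, with 20 of 24 lower and none higher. The GTPases Gbp2 (91.4 to 0.258), Gbp5 (42.0 to 0.0207) and Gbp3 (20.9 to 0.243) and the ubiquitin-like Isg15 (28.3 to 0.919) were its lowest members. The immune markers given above were low in both libraries.

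Genes of the heat shock and unfolded protein responses were lower too. Heat shock proteins and co-chaperones had a median of −1.80 with 13 of 20 lower and none higher, and made up 3.39% of the FPKM sum in FISC and 1.28% in ASC. Hspa1a, Hspa1b and Hspb1 are given above, and the co-chaperone Dnajb1 went from 1423 to 22.2. Hspa4 (75.9 to 147) and the mitochondrial chaperones Hspa9 (268 to 412) and Hspd1 (435 to 574) were within 2-fold, on the higher side. In the unfolded protein response 13 of 22 genes were lower (median −1.16), led by Ppp1r15a, which restarts translation (602 to 33.2), Herpud1 (707 to 43.2), Dnajb9 (189 to 18.5) and the death-linked factor Ddit3 (174 to 19.4). Trib3 was on the higher side within 2-fold (16.1 to 31.3). Of the zinc genes the importer Slc39a14 went with the metallothioneins (539 to 44.6), while Slc39a10 was higher (11.5 to 48.2).

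Promoter sequences of such genes hold known response motifs, and 4 are shown because their genes were among the lowest or, as Srf, encode a factor known to bind such a motif. The stretches come from RefSeq (GRCm38.p6), lie upstream of the listed start, and run 5′ to 3′ on the gene's strand. Capitals mark the match to a CArG box, the site of serum response factor, in Srf itself, to a heat shock element in Hspa1a, and to the NF-kB motif in Cxcl1 and Cxcl2. They lie at chr17:46556210-46556269, chr17:34972228-34972285, chr5:90891150-90891208 and chr5:90903778-90903836.
Srf: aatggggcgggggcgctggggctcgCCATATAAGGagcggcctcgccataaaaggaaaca
Hspa1a: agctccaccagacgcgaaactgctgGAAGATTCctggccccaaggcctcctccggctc
Cxcl1: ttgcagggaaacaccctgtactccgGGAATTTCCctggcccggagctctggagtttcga
Cxcl2: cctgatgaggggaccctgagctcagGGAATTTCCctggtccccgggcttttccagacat
The NF-kB match of Cxcl1 starts 70 bases before its start site and that of Cxcl2 96 bases before. Srf went from 75.2 to 30.2, Hspa1a from 1233 to 3.01, Cxcl1 from 2816 to 6.12 and Cxcl2 from 293 to 0.521.

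Cell division genes had the highest list medians. Of the G1/S cyclins and kinases, Ccnd1 went from 38.3 to 279, its partner Cdk4 from 63.2 to 260.2, Cdk6 from 0.810 to 8.75, Ccne1 from 2.17 to 18.2 and Ccne2 from 0.790 to 17.1. The activating E2f1 (1.26 to 20.2) and E2f2 (2.198 to 9.22) and the repressing E2f7 (0.124 to 3.93) were higher, and E2f8 went from a listed 0 to 5.96. The inhibitors Cdkn1a (554 to 202), Cdkn2d (3.80 to 0.431), Cdkn1b and Cdkn1c were lower, while the inhibitors Cdkn2a and Cdkn2c were not 2-fold lower. Ccnd3 (70.7 to 38.7) and Rb1 (8.398 to 9.47), the gate of S phase, were within 2-fold. In this list 13 of 24 were higher and 4 lower, with a median of 1.498.

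Of 44 genes of G1/S and DNA replication 42 were higher and none lower, with a median of 2.87. Their sum went from 430.0 to 2285. The nucleotide reductase subunit Rrm2 went from 5.90 to 192, the methylation reader Uhrf1 from 1.39 to 65.4 and thymidine kinase Tk1 from 1.4999 to 41.8. All 6 subunits of the replicative helicase were higher, Mcm2 from 2.32 to 78.2, Mcm3 from 3.08 to 99.8, Mcm4 from 15.2 to 64.6, Mcm5 from 4.94 to 72.2, Mcm6 from 6.999 to 100.5 and Mcm7 from 17.2 to 143. The origin licensing factors Cdc6 (0.485 to 14.3) and Cdt1 (8.24 to 55.4), their inhibitor Gmnn (0.675 to 31.1) and the chromatin assembly factor subunits Chaf1a (0.803 to 21.1) and Chaf1b (0.613 to 24.8) were higher. Pcna, the polymerase clamp, already stood high in FISC and passed 2-fold by little (167 to 360.2). Orc6 (23.0 to 41.4) and the histone mRNA factor Slbp (46.2 to 61.8) were within 2-fold.

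Genes of G2/M and mitosis had the highest median of all lists, 3.38, with 38 of 40 higher and none lower. Most stood at low levels in FISC, and their sum went from 112 to 904. The mitotic kinase Cdk1 went from 0.395 to 32.0, its cyclins Ccnb1 from 0.248 to 29.5 and Ccna2 from 1.81 to 43.8, and Plk1 from 0.459 to 19.1. Topoisomerase Top2a (0.733 to 63.4), the ubiquitin enzyme Ube2c (0.538 to 50.6), survivin, Birc5 (1.57 to 55.9), and the proliferation marker Mki67 (0.878 to 23.6) were among the highest. Bub1 and Cdc25c were listed at 0 in FISC and stood at 11.04 and 3.77 in ASC. The transcription factors of this phase, Mybl2 (0.637 to 15.98) and Foxm1 (1.77 to 13.7), were higher, and Cdc25b (20.2 to 29.1) and Pttg1 (37.8 to 23.5) were within 2-fold.

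Promoter elements known from cell cycle genes were looked for in these lists, and 5 stretches are printed because their genes moved from low to clearly higher levels. Capitals mark the cell cycle genes homology region (CHR, TTTGAA or its reverse complement) in Cdk1, Ube2c and Cdc20, and an E2F motif (TTTGGCGC or its reverse complement) in Mcm5 and Mcm6. The RefSeq stretches (GRCm38.p6) lie at chr10:69352913-69352952, chr2:164769875-164769928, chr4:118437344-118437386, chr8:75109335-75109392 and chr1:128359720-128359777, upstream of the start, 5′ to 3′ on the gene's strand.
Cdk1: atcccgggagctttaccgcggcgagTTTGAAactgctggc
Ube2c: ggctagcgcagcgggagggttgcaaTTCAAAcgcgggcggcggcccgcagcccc
Cdc20: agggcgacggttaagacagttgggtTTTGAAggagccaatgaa
Mcm5: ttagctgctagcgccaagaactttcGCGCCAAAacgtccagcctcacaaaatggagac
Mcm6: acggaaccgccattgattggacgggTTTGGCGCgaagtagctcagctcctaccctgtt
The CHR of Cdk1 starts 15 bases, that of Cdc20 18 bases and that of Ube2c 29 bases before the listed start. Where a promoter holds several matches, as those of Cdk1, Mcm6, Cxcl1, Cxcl2 and Srf do, 1 is in capitals. Cdc20 went from 1.41 to 29.1, and the levels of the other 4 are given above.

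Across the list the motifs were common. Promoters were taken as 250 bases before to 50 after each RefSeq start, both strands were searched, and 9436 of the 11816 genes matched the table with 12070 promoters. A CHR (TTTGAA) lay in 26 of 37 promoters of G2/M genes, 70.3%, against 11.9% of promoters of all genes kept and 17.9% of all 32851 in the table. CCAAT lay in 28 of the 37, against 37.7% and 37.4%. An E2F motif (TTTCCCGC or TTTGGCGC) lay in 13 of 44 promoters of G1/S genes, 29.5%, against 3.02% and 1.56%. The heat shock element (GAANNTTC) lay in 10 of 20 promoters of heat shock genes (5.83% and 7.86%), and the NF-kB motif (GGNNTTTCC) in 6 of 17 of chemokine genes and 7 of 16 of NF-kB genes (6.05% and 5.82%). A CArG box lay in 6 of 28 promoters of immediate early genes (1.36% and 1.63%), but these belong to only 3 genes, Egr2, Srf and Zfp36, since overlapping promoters of 1 gene were counted each. These are matches of letters and not shown to be bound.

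**Figure D3:**
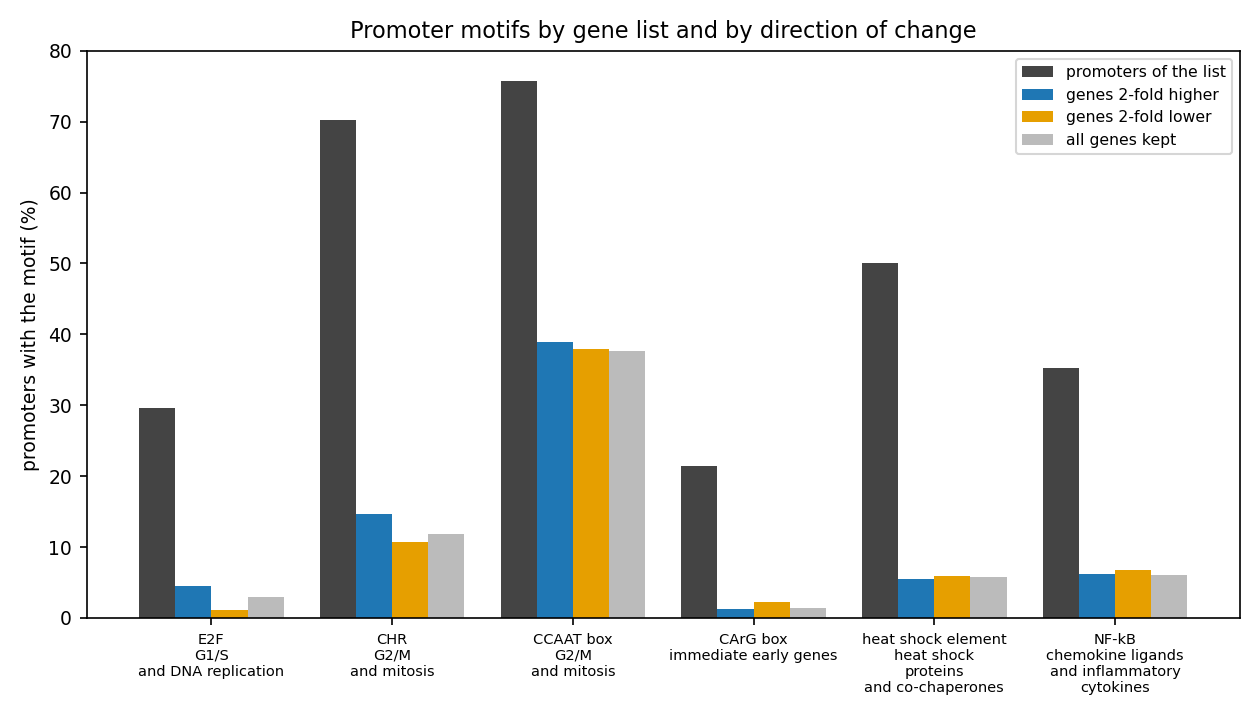
Share of promoters with a motif (%), for the gene list named under each group of bars (black), for genes 2-fold higher (blue) or lower (orange) in activated cells, and for all genes kept (grey). The CHR lies in 70.3% of G2/M promoters but in 14.7% of promoters of all higher genes.

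Over all genes the shares by direction lay closer together. E2F motifs lay in 4.48% of promoters of higher genes (exact Clopper-Pearson 95% interval 3.72 to 5.34, counting error only) and 1.17% of lower ones (0.799 to 1.66). The NRF1 motif GCGCATGCG, of a regulator of mitochondrial and housekeeping genes, lay in 4.59% and 1.32%, and the YY1 motif AAGATGGCG in 3.72% and 1.44%, the former being 2.16% for genes 4-fold higher. For these 3, genes within 2-fold held 3.18%, 4.11% and 3.49%, nearer to the higher genes. The AP-1 motif TGAGTCA went the other way at 3.11% of higher (2.48 to 3.85) and 5.45% of lower genes (4.62 to 6.39), and the CArG box at 1.25% and 2.31%. The E-box CACGTG lay in 11.3% (10.1 to 12.6) and 8.71% (7.66 to 9.85). With each gene counted once, chosen after seeing the data, the E-box lay in 12.9% of higher genes (11.6 to 14.4). For lower genes this share was 10.98% (9.64 to 12.4), so these 2 intervals overlapped. For the NF-kB motif (6.26% and 6.81%), the heat shock element (5.43% and 5.90%), CCAAT (38.9% and 37.9%), the cAMP response element TGACGTCA (3.04% and 3.18%) and the amino acid response motif TGATGNAAT (0.46% and 0.45%) the intervals of higher and lower genes overlapped. Promoters of 1 gene overlap and are not independent.

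Among lists of synthesis genes, nucleotide, serine and one-carbon genes were mostly higher. Nucleotide and pentose phosphate genes had a median of 1.88, with 23 of 30 higher and none lower, led besides Rrm2 by Dut (4.43 to 46.6), the purine enzyme Atic (17.8 to 149.7) and the pyrimidine enzyme Cad (8.42 to 68.2). Serine, one-carbon and asparagine synthesis had a median of 1.92 with 15 of 20 higher. Asns, the mitochondrial folate enzyme Mthfd1l (2.36 to 54.1), Aldh1l2 (0.518 to 13.7) and Phgdh, the first enzyme of serine synthesis (28.4 to 235), led it. Cbs (25.9 to 1.84), which uses serine for transsulfuration, and Mat2a (429 to 198) were the 2 lower members. Polyamine genes went both ways, with Mtap (5.18 to 130.3) and Srm (65.6 to 241) higher and Sat1, which breaks polyamines down, lower (524 to 50.6).

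Factors of ribosome production were often higher, while most genes of the ribosome itself stayed within 2-fold. Nucleolar factors had a median of 1.05 with 24 of 45 higher and none lower, such as Wdr12 (6.16 to 45.7), Utp20 (5.69 to 38.9), Dkc1 (19.4 to 100.4) and Bop1 (22.6 to 101). Of 79 cytosolic ribosomal protein genes 62 were within 2-fold, 15 lower and 2 higher, with a median of −0.77. The share of lower genes was near the 22% of all genes. The median was −0.42 with the deposited FPKM and −0.31 with equal sums. They made up 25.3% of the sum in FISC and 20.2% in ASC. Rps3a1 was the lowest (1832 to 622), Rpl26 the highest (69.3 to 260.3), and Rps27, the other higher member, is uncertain by its copy. The tRNA synthetases had a median of 0.96 with 10 of 20 higher, led by Farsb (14.2 to 67.3) and Rars (30.6 to 135). Translation factors had a median of 0.63, with the exchange factor subunits Eif2b5 (17.2 to 62.4), Eif2b4 (7.42 to 25.3) and Eif2b3 (12.3 to 40.3) higher and the start codon factor Eif1 lower (1333 to 484).

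Other housekeeping machines were on the higher side. Nuclear transport genes had a median of 1.30 with 16 of 26 higher, among them Rcc1, which loads Ran with GTP (12.3 to 97.1), and the exporter Xpo1 (16.4 to 95.9), and Nup98 was the lower one (96.9 to 28.1). Proteasome subunits had a median of 1.19 with 21 of 34 higher, such as Psmd13 (22.8 to 97.8), while the immunoproteasome subunit Psmb8 was lower (10.5 to 3.55). The chaperonin list had a median of 0.94. Splicing factors stayed near 0, at a median of 0.02 that turned to −0.031 with the median ratio set to 0, and 24 of 31 were within 2-fold. Its 4 lowest members were the kinases Clk1 (277 to 53.3) and Clk4 (79.6 to 18.7), which phosphorylate SR proteins, Srsf5 (598 to 179) and Tra2a (312 to 95.5).

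Mitochondrial lists had medians above 0, while glycolytic genes were mixed. Mitochondrial ribosomal proteins had a median of 1.40, with 40 of 55 higher and none lower, as Mrpl34 (3.82 to 39.9) and Mrpl18 (7.77 to 62.3). Complex I had a median of 0.90 with 17 of 37 higher (Ndufa4 89.9 to 420.3), the other complexes 0.67 with 8 of 39 higher, near the 22.8% of all genes (Sdhd 36.5 to 121), and the citric acid cycle 0.80 with 8 of 24 higher, led by the malic enzymes Me1 (2.23 to 20.0) and Me2 (3.49 to 26.8). Fatty acid oxidation stood at a median of 0.00, below 0 with the median ratio set to 0 (−0.048) or without the filter (−0.19), and the fatty acid transporter Cd36 was its lowest member (3.30 to 0.0182). Glycolysis had 9 of 28 genes higher and 10 lower. Eno1, Pgam1 (42.2 to 218), Pgk1 (88.0 to 429) and Eno3 (16.6 to 68.5) were the highest. The hexokinase Hk2 (87.9 to 16.3), Eno2 (6.35 to 0.428), the transporter Slc2a3 (18.5 to 3.64) and the pyruvate dehydrogenase kinase Pdk4 (103 to 23.8) were the lowest. Forms of enolase thus went both ways. Sterol and fatty acid synthesis had a median of −0.74 with 11 of 28 lower, led by Insig1 (83.0 to 13.2) and Msmo1 (102 to 24.7), and Dhcr7 was higher (1.76 to 5.79).

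Redox, autophagy and nutrient genes also divided. Of 26 antioxidant genes 10 were higher, with Prdx5 at 50.5 to 348 and the cystine transporter Slc7a11 at 0.713 to 9.54, and 9 lower, with Gpx3 and Gstm2 (116 to 4.00) lowest, followed by Srxn1 (471 to 59.5) and heme oxygenase, Hmox1 (1539 to 199). Autophagy and lysosome genes had a median of −0.83 with 13 of 28 lower, the lowest being Map1lc3a (234 to 11.7), Gabarapl1 (388 to 34.1), Sqstm1 and the starting kinase Ulk1 (70.6 to 9.02). Of FoxO and mTOR genes 6 of 23 were lower, near the 22% of all genes, such as Txnip, which limits glucose uptake (186 to 20.4), and the insulin adaptor Irs2 (60.7 to 6.42), while Irs1 was higher (3.71 to 12.6). The p53 targets had a median of −0.17, 0.18 with the deposited FPKM and 0.29 with equal sums. Ccng1 (14.8 to 96.7), Zmat3 (3.10 to 19.9), Tigar (0.684 to 6.92) and Bax (61.7 to 286) were higher and the death receptor Fas (331 to 2.52), Btg2, Gadd45a (379 to 32.0) and Gadd45b (262 to 30.3) lower. Circadian genes had a median of −1.98 with 13 of 19 lower, among them Nfil3 (222 to 10.9), Bhlhe40 (177 to 9.89), the repressor Per1 (55.4 to 3.23) and Rora (36.3 to 2.04), and Bhlhe41 was higher (2.59 to 10.4).

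Matrix genes were mostly lower, with exceptions of large size. All 18 kept collagen chains passed 2-fold, 16 lower and 2 higher, with a median of −2.35. Col5a3 (163 to 0.945), Col15a1 (56.9 to 0.0800), Col6a1 (139 to 3.11) and Col1a1 (78.1 to 2.91) were the lowest and Col5a2 (50.3 to 157) and Col8a1 (8.80 to 21.1) the higher ones. The fibroblast markers, of which Col1a1 and Col3a1 are 2, moved the same way, as given above, and their part was not tested. In the list of niche matrix, proteases and inhibitors 21 of 37 were lower and 5 higher (median −1.19). Loxl2 (82.3 to 0.587), Adamts1 (156 to 4.46), Dcn (119 to 4.41) and Timp3 (71.3 to 2.32) were lowest, and Spp1, Tnc, fibronectin, Fn1 (8.81 to 49.7), and Mmp3 (0.656 to 3.26) highest. Integrins had a median of −0.09, which was above 0 at 0.26 with the deposited FPKM, 0.37 with equal sums, 0.21 with a filter at 5 FPKM and 0.10 without a filter. In it Itga3 (2.71 to 40.5) and Itga6 (0.716 to 12.1), laminin receptors, were higher and the fibronectin receptor Itga5 (79.9 to 18.5) lower.

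Cytoskeletal genes spread to both sides, 14 of 46 higher and 10 lower, beside 22.8% and 22% of all genes. Actn1 (16.9 to 198), Tpm1 (40.1 to 373) and nestin, Nes (7.11 to 64.8), were among the highest, and Flnc, the muscle filamin (855 to 48.3), Tubb2a (235 to 33.6), the lamin gene Lmna (984 to 329) and S100a10 (1014 to 349) lowest. Of the YAP and SRF targets Ajuba (3.30 to 36.9) and Ankrd1 were higher and Ctgf (669.7 to 62.3) lower. In the growth list of Hmga and imprinted genes, Hmga2, the H19 RNA (12.1 to 88.1) and Hmga1 (36.2 to 124) were higher, and Igf2 (62.0 to 3.91), Cdkn1c, Igf2bp2 (29.6 to 2.29) and Meg3 lower. BMP and TGF-beta genes had a median of −1.04 with 15 of 29 lower, such as the co-receptor Tgfbr3 (77.3 to 5.33), Bmp2 (13.9 to 0.781) and Bmp4 (103 to 13.6). The Wnt list stood at −0.17, but at 0.16 with the deposited FPKM and 0.27 with equal sums, with Tcf7 higher (3.24 to 10.8) and Wnt4 lower (8.15 to 0.145). The Myc network stood at −0.33 (0.037 with equal sums), Mxd3 being higher (0.477 to 5.83) and Mxd1 (10.8 to 0.786), Mlxip (35.3 to 9.20) and Myc itself (541 to 161) lower. Amino acid transporters had 4 of 18 higher, led by Slc7a3 (2.02 to 19.6), and 4 lower, led by Slc43a1 (39.0 to 6.75), shares near the 22.8% and 22% of all genes.

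The deposited list of 2031 YY1 peaks in activated cells was laid over these groups. The peak sample is labelled C57, while the strain of the RNA libraries is not given. A summit lay within 2 kb of either end of the listed locus for 180 of 2696 higher genes, 6.68% (exact Clopper-Pearson 95% interval 5.76 to 7.69, counting error only), for 433 of 6516 genes within 2-fold, 6.65% (6.05 to 7.28), and for 88 of 2604 lower genes, 3.38% (2.72 to 4.15). The interval of lower genes did not overlap the others, and the differences were not tested. Over all genes kept the share was 5.93% (701 genes). By list, 16 of 55 mitochondrial ribosomal protein genes and 9 of 37 complex I genes had a summit there. Lists without a positive shift had such genes too, with 7 of 31 splicing genes (median ratio 0.02) and 5 of 22 unfolded protein response genes (median −1.16). A summit also lay there for 3 of 44 G1/S genes (Rrm1, Prim2 and Rpa2) and 2 of 40 G2/M genes (Ndc80 and Aurka), near the share of all genes. None of 28 immediate early or 29 quiescence genes had one. Some lists with a positive median had none either. These included 24 cyclin, CDK and inhibitor genes (median 1.498), 20 serine and one-carbon genes (1.92) and 46 cytoskeletal genes (0.12). At the 5.93% share of all genes, few would be expected in lists of this size. The absence of a summit therefore does not set the lower lists apart.

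The ratio varied with the length of the listed locus. In the shortest decile of genes (median 2.93 kb) the median ratio was 0.09, it was highest in the third decile (10.7 kb) at 0.33, and in the longest (203 kb) it was −0.39, with 12.4% higher and 31.8% lower genes. The iKO libraries ran from 0.50 to −0.92 over the same deciles. The collagen list has a median locus of 109.8 kb and lies in the long range, while immediate early genes, at 4.31 kb, lie in the short one. The part of locus length in the lists above was not tested.

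**Figure D4:**
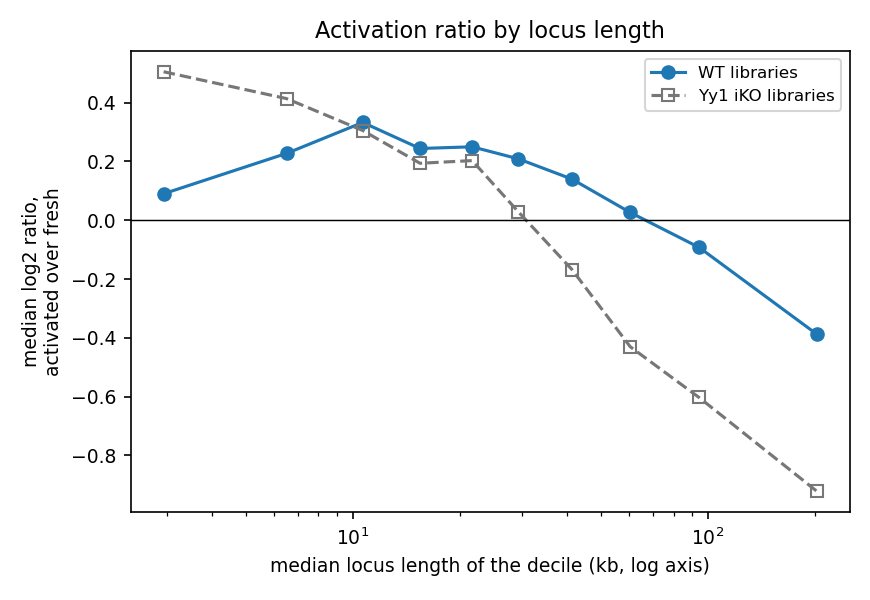
Median ratio by decile of locus length (kb, log axis) for the WT libraries (filled) and the Yy1 iKO libraries (open). The WT line runs from 0.09 in the shortest decile over 0.33 in the third to −0.39 in the longest, and the iKO line from 0.50 to −0.92.

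The 2 iKO libraries give the comparison of fresh and cultured cells in other libraries, without being replicates. Between them 2712 of 11797 genes (23%) were 2-fold higher and 3294 (27.9%) lower after culture. Of the higher genes 1941 were shared, 72.0% of the WT set and 71.6% of the iKO set, and of the lower genes 2210, 84.9% and 67.1%. Between genotypes within a state, 151 of 11206 genes (1.35%) passed 2-fold in FISC and 1888 of 11182 (16.9%) in ASC. The largest WT differences recurred: Spp1 went from 1.53 to 1841 in the iKO libraries, Mt2 from 5006 to 35.0, Fos from 1466 to 3.76 and Asns from 3.18 to 217. List medians of immediate early genes were −4.55 in WT and −4.24 in iKO, and of quiescence genes −2.28 and −2.85. G2/M genes had 3.38 and 2.08, G1/S genes 2.87 and 2.25, complex I 0.90 and 1.73, and cytosolic ribosomal proteins −0.77 and 0.11. The differences between these medians were not tested. Cd34, 2-fold higher in WT (38.7 to 92.2), was not so in iKO (46.5 to 36.9). Myod1 stayed within 2-fold in both, at 468 to 622 in WT and 653 to 489 in iKO, and Pax7 was lower in both, at 70.3 to 25.3 and 91.7 to 5.06. Other differences between the libraries recurred as well. The 4 Y-linked genes were present in fresh iKO cells, with Ddx3y at 33.1 to 0, and listed at 0 after culture, Xist went from 76.5 to 25.5, fibroblast markers went from a sum of 1507 to 31.5 and erythroid genes from 580.2 to 0.0460. Their part in the recurrence was not tested.

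**Figure D5:**
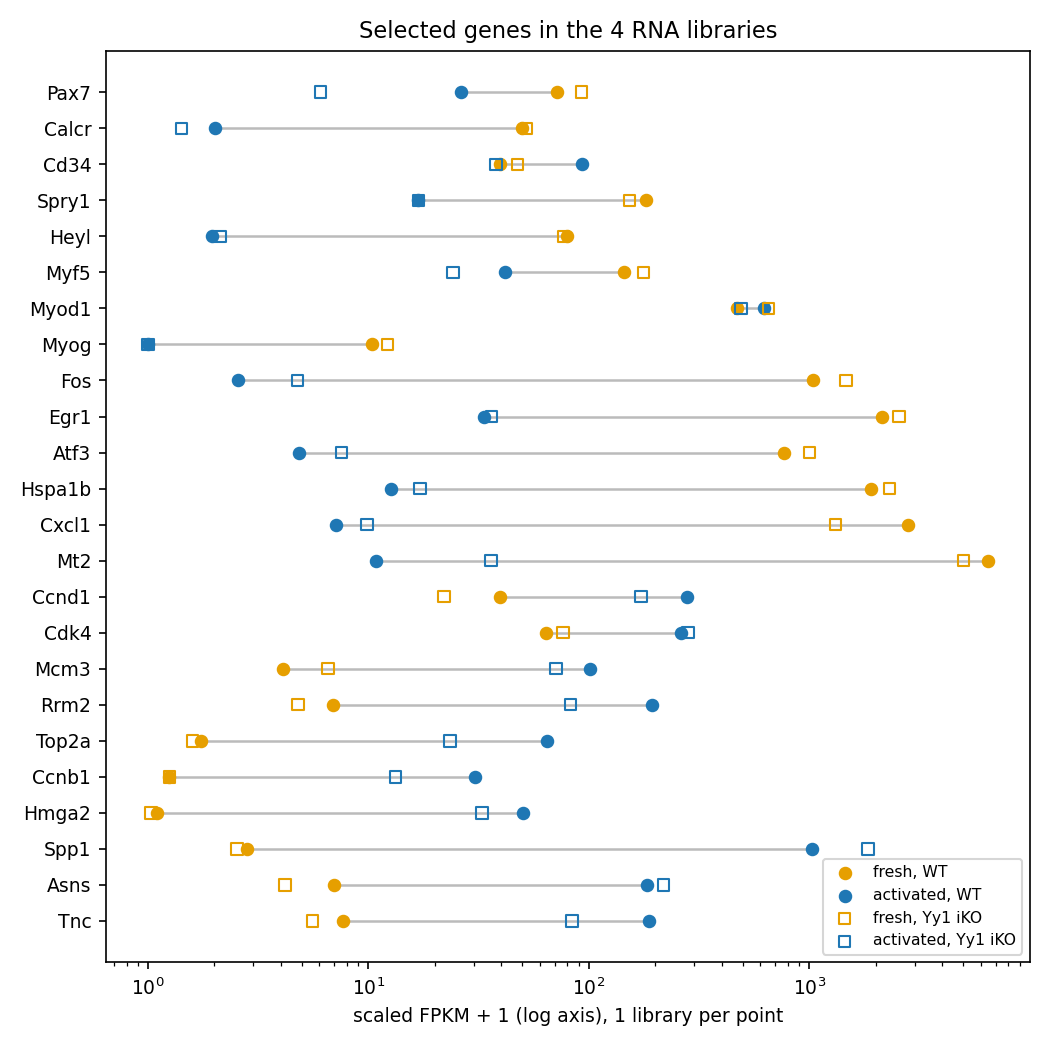
Level of 24 genes in the 4 RNA libraries (scaled FPKM + 1, log axis, 1 library per point), fresh in orange and activated in blue, WT filled and Yy1 iKO open. The iKO points lie on the same side as the WT points for Fos, Mt2, Spp1 and Asns, while Cd34 and Myod1 differ in direction between the genotypes.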

How the data were processed

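PolyA RNA libraries, 1 for each of WT and Yy1 iKO in fresh and activated satellite cells, and 1 YY1 peak list were used. The authors deposited FPKM for each gene in 1 table per state, and the tables may have been normalized separately, so levels set across them rest on the scaling described here. TopHat2, Cufflinks 2.2.1, MACS2 2.1.0 and mm9 are named in the submitters' processing notes, but the sources used here do not give the annotation, filters or any scaling of libraries. The deposited peak list gives for each peak a score, a fold enrichment, −log10 p and −log10 q and the offset of its summit, as the authors' values, and peaks were called on 1 immunoprecipitation.

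Symbols in both tables numbered 24067 (24312 in ASC, 24205 in FISC), and 11816 with at least 1 FPKM in either WT library were kept. Each column was scaled so that the 75th percentile of these genes equalled the mean of both, and log2 of (ASC + 1) over (FISC + 1) was taken. No test was run with 1 library a group. Named genes were the 15 highest and 15 lowest ratios at 5 scaled FPKM or more, the 10 largest gains and losses, the 4 highest and 4 lowest members of each list, all members of 6 lists, every marker, and genes of opposite direction in iKO, a few of which are not reported here. The members and lists were chosen with earlier results of these data known. Alternatives were other scalings, pseudocounts, filters, windows and thresholds, and counting motifs once per gene, which was chosen after seeing the data. Loci are those of the deposited tables (mm9), and promoters are those of RefSeq (GRCm38.p6), matched by symbol (9019 genes) or a unique older symbol (417). No replicate limits the spread, and intervals cover counting error only. The calculation was tested on simulated data with python 3.11.15, numpy 2.4.6, pandas 2.3.3, scipy 1.17.1 and matplotlib 3.10.9.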

Additional observations from a re-analysis of the deposited data

Results flagged for a closer look

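Of the genes at least 2-fold higher or lower after culture in WT, 22 lay at least 2-fold on the other side of 0 in the iKO libraries. The 12 named here were all higher in WT and lower in iKO. Each direction rests on 1 library a side, and the difference between genotypes was not tested. Ratios are given first for WT and then for iKO, on the scale of log2 (FPKM + 1).

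Among genes with more than 10 FPKM in fresh cells, Glg1, a Golgi glycoprotein, went from 13.2 to 28.7 in WT (1.07) and from 14.5 to 2.33 in iKO (−2.22). Eif4ebp2, which holds back the cap-binding factor of translation, went from 14.5 to 35.4 (1.23) and from 16.5 to 4.51 (−1.66). Pds5a, a cohesin regulator, went from 15.6 to 40.3 (1.31) and from 17.7 to 4.76 (−1.70). For these 3 the fresh libraries stood close together and the activated ones apart.

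Genes with lower levels are the following. Irs1, the insulin receptor adaptor, went from 3.71 to 12.6 (1.53) and from 3.84 to 0.999 (−1.27), Cbl, a ubiquitin ligase, from 3.09 to 8.34 (1.19) and 4.19 to 0.498 (−1.79), and Sync, an intermediate filament protein of muscle, from 6.998 to 15.02 (1.00) and 5.33 to 2.04 (−1.06). Cers6, a ceramide synthase, had 1.02 and −1.09, Greb1 1.23 and −1.02 (4.03 to 10.8 and 9.03 to 3.94, the fresh libraries standing apart too), and AI506816 1.37 and −1.43. Apoo-ps, a pseudogene, went from 0.0106 to 8.42 in WT (3.22) and from 2.34 to 0 in iKO, where the 0 is a listed one, so that −1.74 is set by the added 1 and is no fold.

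The other two share sequence with a copy. Rps27 had 1.42 and −4.72, but with Rps27rt the sum went from 4173 to 1657 in WT and from 3795 to 2854 in iKO. Eif3j1 had 3.86 and −4.97, but with Eif3j2 the sum went from 73.6 to 58.4 and from 66.4 to 52.2. The sums thus moved the same way in both genotypes.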

How the results depend on the processing

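With 1 library a state no call has a replicate check, and no depth is known beyond the implied ratio of reads, which assumes that both tables were normalized alike. No paired analysis was possible because each group holds 1 library. Over 58 lists and 405 alternative values the median kept its sign except in 12 values of 6 lists. Over 47 genes and 235 values none changed sign, but these genes were picked for extreme ratios, gains or losses. Their ratios were mostly too large for such shifts to turn, so this says nothing about other genes. In size, 95 of the list values and 81 of the gene values moved by at least 0.39 while keeping their sign. With the deposited FPKM the medians of p53 targets (0.18), integrins (0.26) and Wnt genes (0.16) turned positive, and with equal sums those of p53 targets (0.29), integrins (0.37), Wnt genes (0.27) and the Myc network (0.037), by the shift of all ratios, whose median over all genes was then 0.50. With the median ratio set to 0, splicing factors (−0.031) and fatty acid oxidation (−0.048) turned negative. Integrins stood at 0.21 with a filter at 5 FPKM and 0.10 with none, and fatty acid oxidation at −0.19 with none, since the filter changes which members count, and immune markers had no member left at 5 FPKM. A pseudocount of 5 left 1638 higher and 1561 lower genes. A YY1 summit lay within 10 kb of 10.98% of higher, 6.61% of lower and 10.5% of other genes, and at −log10 q of at least 5 within 2 kb of 2.11%, 0.730% and 1.90%. At 4-fold, E2F motifs lay in 6.06%, CHR in 17.9% and YY1 motifs in 2.16% of promoters of higher genes, and NRF1 motifs in 0.292% and AP-1 in 6.42% of lower ones. With each gene counted once, chosen after seeing the data, CHR lay in 16.5% of higher and 13.2% of lower genes and AP-1 in 6.88% of lower ones. Counted in this way, the E-box intervals of higher and lower genes overlapped, which they did not when every promoter was counted. The cause of the motif and peak differences was not tested.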
